A study of Mus musculus with 4 samples.

Results

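The immediate early and heat-shock genes followed here were *Fos*, *Fosb*, *Jun*, *Junb*, *Jund*, *Egr1*, *Ier2*, *Atf3*, *Hspa1a* and *Hspa1b*. They were followed through single cells of the hyaloid vessels, the transient vascular bed of the vitreous body, of P6 mice. These 10 of 32285 genes were chosen by name, and each had 1 row in the files. The cells were those of *Gpr124* dEC/dEC mice, in which a tamoxifen-inducible Cre under the VE-cadherin promoter deletes *Gpr124* in endothelial cells, and of Cre-negative *Gpr124* fl/fl littermates. Both genotypes carried the floxed allele and received tamoxifen. The vitreous bodies of each genotype were pooled into 1 suspension, so each genotype is 1 sample, and each suspension filled 2 plates. Per the study's sorting scheme 1 was sorted for CD31, an endothelial antigen, and 1 for PDGFRB, a pericyte antigen. The dEC/dEC PDGFRB-gate plate also received some cells of the CD31 gate. Their positions are not given in the sources used here, so they are part of every value of that plate. Transcripts were counted as UMIs (unique molecular identifiers) in 384 wells per plate, and not every well received a cell.

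Immediate early genes are switched on within minutes of a stimulus without new protein synthesis. *Fos*, *Fosb*, *Jun*, *Junb* and *Jund* encode the subunits that pair into the AP-1 transcription factor, *Egr1* encodes a zinc-finger transcription factor and *Atf3* a bZIP factor induced by stress. *Hspa1a* and *Hspa1b* encode nearly identical inducible HSP70 chaperones. Enzymatic dissociation of a tissue is known to induce both groups, so their transcripts are commonly read as a mark of handling. Per the study's methods the tissue was digested with Subtilisin A in the cold and the cells were stained on ice. The part of this handling in the levels was not tested. The question here was whether few or all cells carried them.

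The wells with 1000 to 8000 UMIs and a mitochondrial share under 10% were divided by 2 marker transcripts. The 11 wells in which *Cldn5* was found and *Pdgfrb* was not were taken as endothelial cells, and the 21 with the reverse as pericytes. These classes did not match the gates throughout. The fl/fl CD31-gate plate held 2 endothelial cells and 6 pericytes, and the fl/fl PDGFRB-gate plate 3 of each. The dEC/dEC CD31-gate plate held 4 and 0, and the dEC/dEC PDGFRB-gate plate 2 and 12. A plate's gate therefore names its sort and not the class of its cells. The 32 retained cells held 1104 to 7222 UMIs each and 111508 in all. With *Cldn5* and *Pdgfrb* left out, since they set the classes, 14 other pericyte markers gave 18.04 UMIs per 10000 in the endothelial cells and 184 in the pericytes other than the 2 with the highest summed level of the 10 genes. The 14 other endothelial markers gave 111 and 9.23. *Adgra2*, the gene of GPR124, had 3 UMIs in the fl/fl and 0 in the dEC/dEC endothelial cells, where 3 UMIs would be 1.89 per 10000, and 3′ counts may lie outside the deleted part. Globin and other erythroid transcripts were at 63 to 87 UMIs in each of the 3 endothelial cells of the fl/fl PDGFRB-gate plate and at 0 to 2 in the other 8. All 384 well barcodes recurred in every plate, and for 10 retained cells another plate had a well of 1000 UMIs or more with the same barcode.

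The genes lie apart in the genome except for the HSP70 pair. In the GENCODE annotation of GRCm38, *Fos* spans chr12:85473890-85477273 and *Fosb* chr7:19302696-19310051. *Jun* (chr4:95049034-95052222), *Jund* (chr8:70698949-70700616), *Ier2* (chr8:84661331-84662852), *Hspa1a* (chr17:34969190-34972156) and *Hspa1b* (chr17:34956436-34959238) are annotated as a single exon each. *Junb* lies at chr8:84974484-84978718 and *Atf3* at chr1:191170296-191218039. Genes on the opposite strand overlap *Jun* (*Junos*), *Junb* (*Prdx2*), *Jund* (*Gm11175*), *Atf3* (*Gm24748*) and *Hspa1a* (*Gm20481*), and whether counting used the strand is not given in the sources used here. The annotated *Hspa1a* and *Hspa1b* transcripts were identical in 86.8% of aligned columns but in 50% over their last 100 bases. Their reads can be told apart at those ends, and elsewhere the split between them is uncertain.

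RefSeq promoters of GRCm38.p6 were at hand for 8 of the 10 genes, all but *Egr1* and *Ier2*. The 200 bases before the start are printed for the AP-1 genes that lay in the fewest cells, *Fos* and *Fosb*, for *Jun*, which lay in many wells, and for both HSP70 genes, whose promoters were 98.8% identical over 250 bases. Capitals mark motifs found on either strand.
Fos, chr12:85473690-85473889, plus strand: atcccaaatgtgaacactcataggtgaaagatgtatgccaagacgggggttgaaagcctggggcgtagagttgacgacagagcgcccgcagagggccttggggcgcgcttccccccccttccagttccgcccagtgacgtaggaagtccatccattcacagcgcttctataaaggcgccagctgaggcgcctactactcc
Fosb, chr7:19310046-19310245, minus strand: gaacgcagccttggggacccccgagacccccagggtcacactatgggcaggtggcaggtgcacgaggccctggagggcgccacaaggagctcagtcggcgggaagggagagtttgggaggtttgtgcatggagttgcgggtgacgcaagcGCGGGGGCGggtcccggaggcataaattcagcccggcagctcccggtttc
Jun, chr4:95052223-95052422, minus strand: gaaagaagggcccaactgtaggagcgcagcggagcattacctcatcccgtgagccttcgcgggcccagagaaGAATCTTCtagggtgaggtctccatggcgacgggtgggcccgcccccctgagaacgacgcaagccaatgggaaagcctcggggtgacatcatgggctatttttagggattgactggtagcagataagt
Hspa1a, chr17:34972157-34972356, minus strand: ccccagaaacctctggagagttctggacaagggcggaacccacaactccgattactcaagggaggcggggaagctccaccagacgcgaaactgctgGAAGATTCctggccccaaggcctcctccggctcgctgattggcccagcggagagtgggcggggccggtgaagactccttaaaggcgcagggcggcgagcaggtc
Hspa1b, chr17:34959239-34959438, minus strand: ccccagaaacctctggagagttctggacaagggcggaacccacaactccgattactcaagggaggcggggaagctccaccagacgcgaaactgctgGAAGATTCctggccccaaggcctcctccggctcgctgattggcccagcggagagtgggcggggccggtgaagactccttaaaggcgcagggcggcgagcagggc
The capitals in *Hspa1a*, *Hspa1b* and *Jun* are a heat shock element core, GAANNTTC, which 6.69% of 32851 RefSeq promoters held in the 250 bases before the start. The capitals in *Fosb* are an EGR site, GCGGGGGCG, held by 2.57%. The other motifs searched were the CRE TGACGTCA, held by 1.55% of promoters, the TRE TGANTCA, held by 6.75%, and the CArG box, held by 1.47%. None of the 3 was found with these letters in the 8 windows. Those of *Jund*, *Atf3*, *Fosb* and *Junb* lie before RefSeq starts that differ from the outer starts of the gene spans above. The last bases of the *Fosb* window lie within its span. The motifs searched did not overlap in these windows.

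Most retained cells held at least 1 UMI of the genes, but nearly all held few. The 10 genes together had 167 UMIs, or 14.98 per 10000 (exact 95% Poisson interval 12.8 to 17.4), and 27 of 32 cells held at least 1. The level per cell ran from 0 to 81.7 per 10000 with a median of 8.73. It was below 15 in 26 cells, between 15 and 30 in 4 and above 30 in 2. These intervals and the others below cover counting error only.

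**Figure D1:**
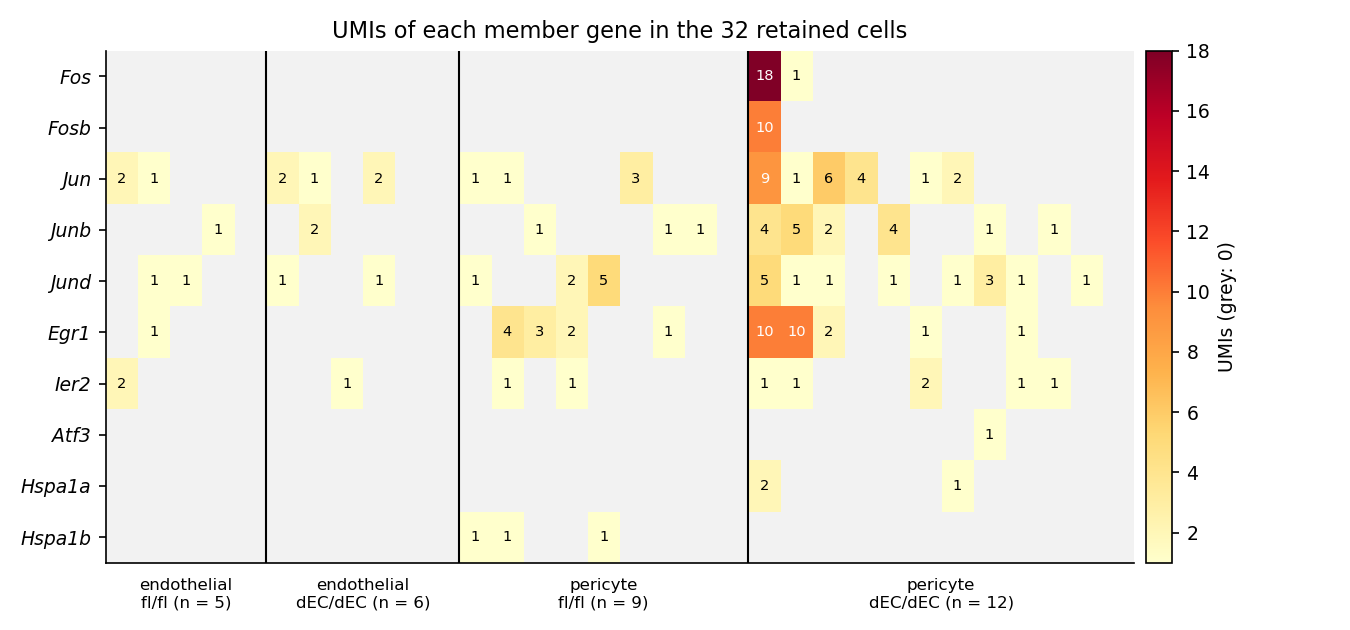
UMIs of each of the 10 genes (rows) in each of the 32 retained cells (columns), grouped by class and genotype and ordered by summed level within a group; grey is 0. Almost every filled square holds 1 to 6 UMIs, and the squares of 9 to 18 UMIs all lie in the 2 leftmost dEC/dEC pericytes.

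The 2 highest cells were both pericytes of the dEC/dEC PDGFRB-gate plate, and together they held 78 of the 167 UMIs, or 46.7%. The highest cell, with 7222 UMIs in all, held 18 UMIs of *Fos*, 10 of *Fosb*, 9 of *Jun*, 4 of *Junb*, 5 of *Jund*, 10 of *Egr1*, 1 of *Ier2* and 2 of *Hspa1a*. Its level of 81.7 per 10000 drew on 8 of the 10 genes, and *Atf3* and *Hspa1b* were at 0. The second, with 2853 UMIs and a level of 66.6 per 10000, held 10 UMIs of *Egr1*, 5 of *Junb* and 1 each of *Fos*, *Jun*, *Jund* and *Ier2*. *Egr1* was therefore high in both cells, *Fos* and *Fosb* in the first only. The next cell, a pericyte of the same plate, stood at 29.3 per 10000 with 6 UMIs of *Jun* and no *Fos*. These cells were picked for these values, so the gap is a description. The mitochondrial share was 4.29% and 5.54% in the 2 cells, against a median of 4.77% in the pericytes.

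**Figure D2:**
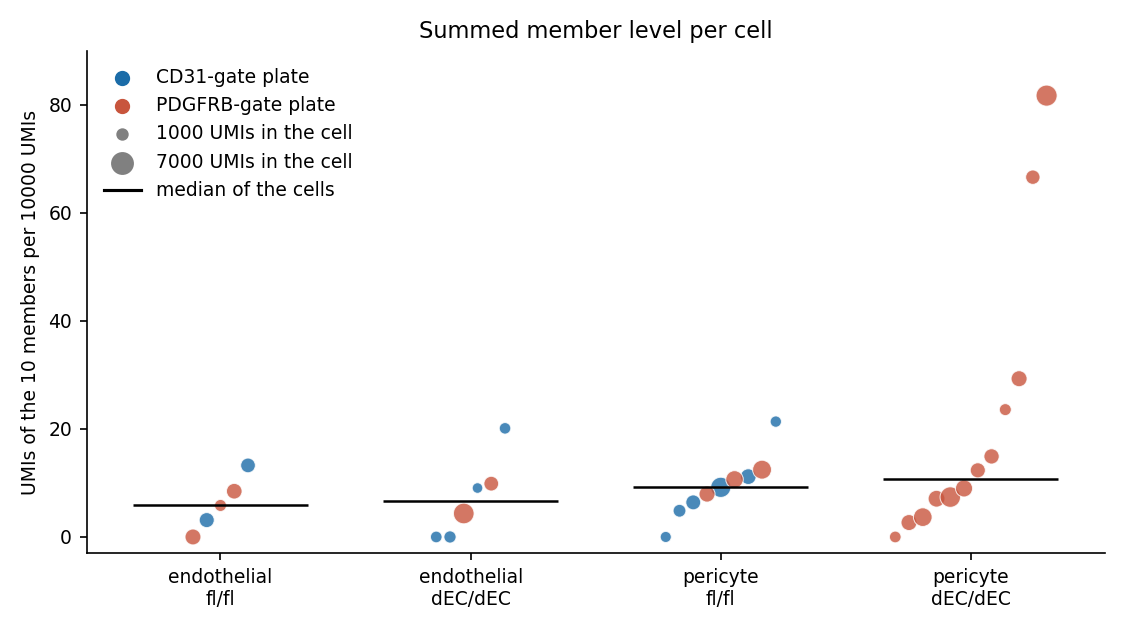
Summed UMIs of the 10 genes per 10000 UMIs in each retained cell, by class and genotype; point area grows with the cell's total, colour gives the gate of the plate and lines are medians. The dEC/dEC pericytes at 81.7 and 66.6 stand above all other cells, which lie between 0 and 29.3.

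*Fos* and *Fosb*, partners of the JUN proteins, were the AP-1 genes found in the fewest retained cells. All 19 *Fos* UMIs lay in the 2 highest cells and all 10 *Fosb* UMIs in the highest. Had these UMIs been spread over the 21 pericytes in proportion to cell totals, 11.99 cells would have held *Fos* and 7.82 *Fosb*, where 2 and 1 did. The dispersion over pericytes, the chi-square of the UMIs against that spread divided by its degrees of freedom, was 8.62 for *Fos* and 5.07 for *Fosb*, beside a median of 1.26 over the 1915 genes with at least 10 UMIs in pericytes. Of those genes, 4 had a higher dispersion than *Fos* and 14 a higher one than *Fosb*. Both genes reached 10 UMIs only through the highest cell, so their place among these genes is a description. In the 11 endothelial cells both were at 0 of 31048 UMIs, with an exact 95% upper limit of 1.19 per 10000 over the class.

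*Egr1* (chr18:34859823-34864984), whose protein binds GC-rich promoters, was uneven but not confined to these cells. Its 34 UMIs in pericytes lay in 9 of 21 cells where 15.9 were expected from the totals, and 20 of them lay in the 2 highest cells. The dispersion was 5.05, and 15 of the 1915 genes exceeded it. The other 7 pericytes with *Egr1* held 1 to 4 UMIs each, and 4 of them were fl/fl cells. Without the 2 cells the dispersion over the remaining 19 pericytes was 1.496, beside a median of 1.25 over 1618 genes. In endothelial cells *Egr1* gave 1 UMI, in an fl/fl cell.

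*Jun* and *Junb* were intermediate. *Jun*, the AP-1 subunit that can pair with itself or with FOS, had 28 UMIs in 9 pericytes where 14.6 were expected, with 9, 6 and 4 in the 3 cells with the most. Its dispersion of 3.64 was exceeded by 38 genes and did not rest on the 2 highest cells, since it was 4.10 without them. *Junb*, a subunit that often opposes JUN, had 20 UMIs in 9 pericytes where 12.4 were expected, with a dispersion of 2.67 that 95 genes exceeded. Without the 2 cells the value for *Junb* was 1.97. In endothelial cells *Jun* had 8 UMIs in 5 cells, at most 2 a cell, and *Junb* 3 UMIs in 2 cells.

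*Jund* and *Ier2* were spread about as evenly as cell totals. *Jund*, the AP-1 subunit known for steady expression in resting cells, had 22 UMIs in 11 pericytes where 13 were expected, and 4 UMIs in 4 endothelial cells where 3.36 were expected. Its dispersion in pericytes was 1.06, and 1288 of 1915 genes exceeded it. *Ier2*, an immediate early gene whose product is nuclear, had 8 UMIs in 7 pericytes where 6.59 were expected and 3 UMIs in 2 endothelial cells. No cell held more than 5 UMIs of *Jund* or 2 of *Ier2*.

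**Figure D3:**
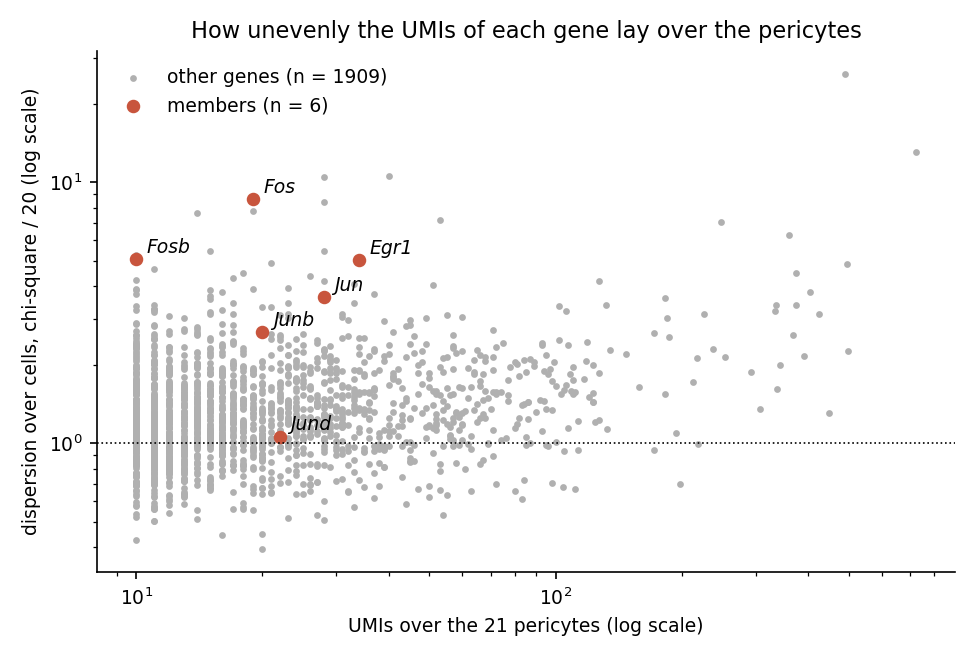
Dispersion of each gene's UMIs over the 21 pericytes against its UMIs in them, both on log scales, for the 1915 genes with at least 10 UMIs; the dotted line marks 1, the value if UMIs followed cell totals. *Fos* (8.62), *Fosb* (5.07) and *Egr1* (5.05) lie near the upper edge of the genes of like abundance, and *Jund* (1.06) lies at the dotted line.

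The stress-induced genes gave few UMIs in the retained cells, 1 of *Atf3* and 6 of the HSP70 pair. *Hspa1a* had 3 UMIs, 2 of them in the highest cell and 1 in another dEC/dEC pericyte, and *Hspa1b* had 3, in 3 fl/fl pericytes. *Atf3* had 1 UMI, in a dEC/dEC pericyte. All 3 were at 0 in endothelial cells, with an upper limit of 1.19 per 10000 each. Over pericytes *Hspa1a* and *Hspa1b* stood at 0.373 per 10000 each (0.0769 to 1.09). With 3 UMIs each, a difference between the genes or the genotypes was not detectable at this depth.

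The number of cells with a UMI depended on depth. At least 1 of the 10 genes was found in 8 of 11 endothelial cells and 19 of 21 pericytes, and at least 2 UMIs in 5 and 17. Thinned to 1000 UMIs a cell, an expected 5.27 endothelial cells and 13.3 pericytes would hold 1. Median totals were 3020 and 3750 UMIs in the 2 classes. Over the 32 cells the summed level had a Spearman correlation of 0.10 with the total and 0.23 with the mitochondrial share, points that share 2 suspensions and 4 plates.

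Between the classes, the summed level was 6.12 per 10000 in endothelial cells (3.68 to 9.56, 19 UMIs) and 18.4 in pericytes (15.6 to 21.6, 148 UMIs). By plate the endothelial cells stood at 8.03 and 4.46 in fl/fl and at 6.75 and 6.04 in dEC/dEC, CD31 gate first. The pericytes stood at 8.88 and 10.6 in the fl/fl plates and at 24.2 in the dEC/dEC PDGFRB-gate plate, with no pericyte in the dEC/dEC CD31-gate plate. All 3 pericyte values lay above all 4 endothelial ones, as did 12.7% of the 2689 single genes with at least 10 UMIs. The closest values were 8.88 and 8.03, both of the fl/fl CD31-gate plate. Without the 2 highest cells, picked for this level, the pericytes were at 9.95 per 10000 (7.75 to 12.6). That interval meets the one of the endothelial cells. The 3 endothelial cells with erythroid transcripts held 0, 5.83 and 8.47 per 10000, within the range of the other 8, and the part of these transcripts in the class levels was not tested.

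**Figure D4:**
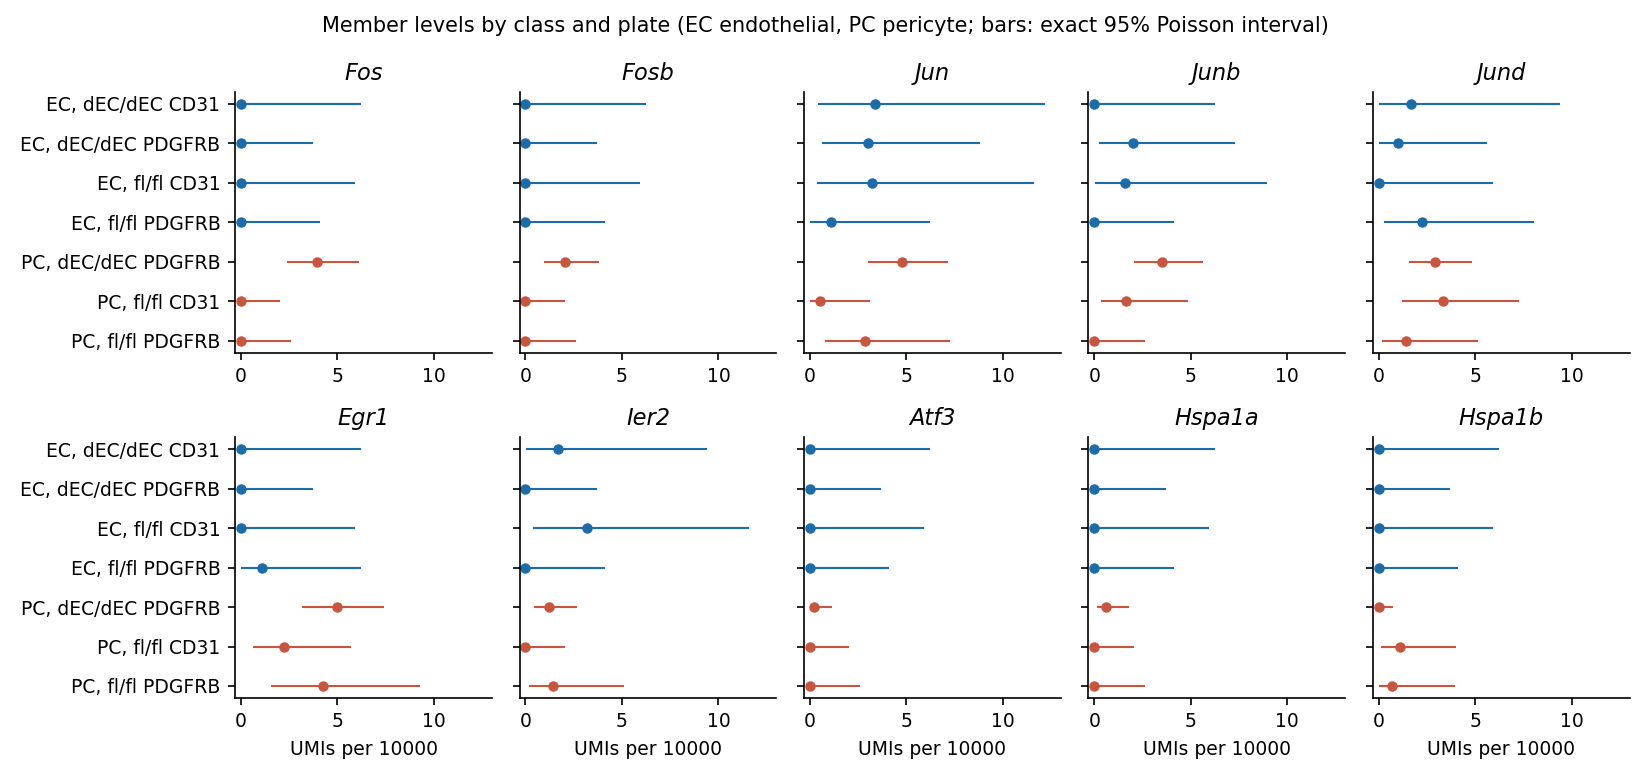
Level of each gene in UMIs per 10000 for the 4 plates with endothelial cells (blue) and the 3 with pericytes (red); bars are exact 95% Poisson intervals. *Fos* and *Fosb* are above 0 only in the pericytes of the dEC/dEC PDGFRB-gate plate, and *Egr1* is higher in each pericyte plate (2.22 to 4.96) than in any endothelial plate (0 to 1.12).

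Tested over plates, the class difference passed for *Egr1* alone and only in a fit without the low-count filter. With that filter 148 genes were tested by edgeR's quasi-likelihood test on sums per class and plate, 51 of them, 34.5%, had an adjusted p under 0.05, and none of the 10 genes was abundant enough to be tested. In the fit over all 10829 genes with a UMI, 238 genes, 2.20%, were called. *Egr1* by plate was at 0, 0, 0 and 1.12 per 10000 in endothelial cells and at 2.22, 4.26 and 4.96 in pericytes, and the plates of the classes did not overlap. Of the 2689 genes with at least 10 UMIs, 12.7% lay higher in every pericyte plate than in every endothelial one. The log2 fold change of *Egr1* was 4.04 (SE 1.04, adjusted p = 0.0077 by edgeR). That of *Fos*, at 0 in all but 1 of the 7 sums, was 4.91 (SE 1.54, adjusted p = 0.061 by edgeR), a value set by the prior count. The *Egr1* call was lost without the 2 highest cells (3.13, adjusted p = 0.22), with the plate as a block (3.75, adjusted p = 0.20), by DESeq2 (3.59, adjusted p = 0.059) and on leaving out the fl/fl CD31-gate plate (4.04, adjusted p = 0.053), the fl/fl PDGFRB-gate plate (6.06, adjusted p = 0.61) or the dEC/dEC PDGFRB-gate plate (3.01, adjusted p = 0.71). Without the fl/fl PDGFRB-gate plate 6 of 10196 genes were called at all. The *Egr1* call was kept without the dEC/dEC CD31-gate plate (adjusted p = 0.038 by edgeR). Unadjusted p was under 0.05 for *Fosb* and *Jund* too, and the other 6 genes did not pass. Plates of 1 suspension are not separate animals, so these p-values measure the spread between plates. In the edgeR fits with all plates that spread was pooled over genes, not estimated for each gene alone. Plates with cells of both classes entered as separate sums, tied together only in the fit with the plate as a block.

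Between the genotypes, the endothelial levels lay close together and the pericyte levels apart. In endothelial cells the 10 genes had 9 UMIs in fl/fl (5.93 per 10000, 5 cells) and 10 in dEC/dEC (6.30, 6 cells), a log2 ratio of fl/fl over dEC/dEC of -0.09 (exact 95% interval -1.56 to 1.36). No gene reached 10 UMIs in the class. At least 2-fold differences toward dEC/dEC were found for 17.8% and toward fl/fl for 12.6% of the 538 endothelial genes that did. In pericytes the 31 UMIs of the 9 fl/fl cells gave 9.65 per 10000 and the 117 of the 12 dEC/dEC cells 24.2, a log2 ratio of -1.33 (-1.95 to -0.74). With 1 suspension per genotype there was no test.

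The pericyte difference was carried by the 2 highest cells. Both are dEC/dEC and were picked for their level, so leaving them out had to lower the dEC/dEC side. The values without them are a description. Without them the remaining 10 dEC/dEC pericytes held 39 UMIs, 10.2 per 10000, and the log2 ratio was -0.08 (-0.81 to 0.64). The medians over all cells were 9.19 per 10000 in fl/fl and 10.7 in dEC/dEC pericytes, and 8 of 9 and 11 of 12 cells held a UMI. The cells of the genotypes overlapped from 0 to 21.4, and 4 dEC/dEC cells lay above that. The dEC/dEC pericytes came from 1 plate, so plate and genotype cannot be told apart. The fl/fl plate of the same gate held 3 of the 9 fl/fl pericytes and stood at 10.6.

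By gene, 4 of the 6 with at least 10 UMIs in pericytes were at least 2-fold higher in dEC/dEC, against 12.6% of 1915 genes. None was 2-fold higher in fl/fl, against 13.1%. The 4, *Fos*, *Fosb*, *Jun* and *Junb*, reached 10 UMIs only with the dEC/dEC cells, since fl/fl held 0, 0, 5 and 3. The count is therefore a description and no result about the genes as a set. *Fos* and *Fosb* were at 0 in fl/fl and at 3.93 and 2.07 per 10000 in dEC/dEC. Against a floor of 3 UMIs over the fl/fl pericytes these levels were 4.21-fold and 2.21-fold higher. The lower limits of the exact intervals were 3.10-fold for *Fos* and 1.49-fold for *Fosb*, that of *Fosb* under 2-fold. *Jun* was at 1.56 and 4.76 (log2 ratio -1.61, -3.36 to -0.18) and *Junb* at 0.934 and 3.52 (-1.91, -4.32 to -0.12). *Jund*, at 2.49 and 2.90, and *Egr1*, at 3.11 and 4.96, had intervals that included 0. The 2 highest cells, picked for their level, held 20 of the 24 dEC/dEC UMIs of *Egr1*. Without them *Egr1* stood at 3.11 in fl/fl and 1.05 in dEC/dEC (1.58, -0.22 to 3.70). The intervals of *Jun* (-1.13, -2.97 to 0.45) and *Junb* (-1.16, -3.71 to 0.90) then included 0. *Fos* and *Fosb* had no UMI left in either genotype.

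Other stress genes differed less than the 10 genes between the 2 highest cells and the rest, where the 10 genes stood at 77.4 and 9.95 per 10000 by the choice of cells. A list of 32 further immediate early and dissociation genes had 66.5 UMIs per 10000 in the 2 highest cells, 44.0 in the other 19 pericytes (1.51-fold, 1.14 to 1.97) and 43.2 in endothelial cells. Within the pair it stood at 81.7 in the highest cell and 28.0 in the second. *Ccn1*, a matricellular gene singled out after its values were seen, gave 13 of its 23 UMIs in the highest cell. The 3 most abundant of the list were *Id3*, an inhibitor of bHLH factors (132 UMIs in 28 cells), *Zfp36l1*, an mRNA-decay factor (52 in 19), and *Rhob*, a small GTPase (40 in 19). *Id3* was the only one tested between the classes and was higher in pericytes (log2 fold change 1.003, SE 0.41, adjusted p = 0.040 by edgeR).

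The constitutive chaperones *Hspa8* and *Hsp90ab1* had more UMIs, in more cells, than the HSP70 pair. Of 19 chaperone and heat-shock genes 17 had UMIs, at 59.6 per 10000 in the 2 cells, 42.8 in the other pericytes (1.39-fold, 1.04 to 1.84) and 48.0 in endothelial cells. *Hspa8*, the constitutive HSC70, had 136 UMIs in 29 cells, *Hsp90ab1*, the constitutive HSP90, 125 in 30, and *Hspa5*, the HSP70 of the endoplasmic reticulum, 45 in 21. *Hspa8* and *Hsp90ab1* were the 2 tested between the classes and did not pass (log2 fold change 0.28, SE 0.38, and -0.48, SE 0.37). Of 13 other AP-1 and bZIP subunits 11 had UMIs, led by *Creb1* (14), *Atf4* (12) and *Atf2* (10), and the list was at 5.96 per 10000 in the 2 cells and 5.68 in the other pericytes. Of 10 upstream regulators 9 had UMIs, among them the serum response factor partner *Elk3* (25) and the kinase *Mapk9* (11), at 9.93 and 6.68 per 10000. No gene of these last 2 lists was abundant enough to be tested.

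Markers of other cell types were counted in the 2 cells too. With *Cldn5* and *Pdgfrb* left out, the pericyte list was at 226 per 10000 in them and 184 in the other pericytes, the endothelial list at 13.9 and 9.23, the macrophage list at 3 UMIs and the erythroid list at 0. Lens, melanocyte and astrocyte lists were at 0 in both cells, and over all retained cells they gave 2 UMIs, both of *Mitf*. Among the other pericytes the most macrophage UMIs in a cell were 15, or 40 per 10000, and the most erythroid UMIs 9. Each was in a dEC/dEC cell. Wells of other plates with the barcode of the highest cell held 1 to 3 UMIs of the 10 genes and no *Fos* or *Fosb*, and those with the barcode of the second held 0 or 1.

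Of the 606 genes outside the lists with UMIs in at least 16 of the 32 cells, *Pttg1ip* followed the summed level most closely (Spearman 0.66, 29 UMIs). *Puf60* (0.55), *Utrn* (0.53), *Anxa6* (0.52) and *Gng11* (0.51) came next. Without the 2 highest cells the values were 0.58, 0.62, 0.48, 0.52 and 0.50. These are sparse counts in cells that share plates and suspensions, and the values describe them only.

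In the wells below 1000 UMIs the genes had another make-up. The 1478 wells below 1000 UMIs, some of which received no cell, held 384 UMIs of the 10 genes in 315 wells, 17.0 per 10000 (15.4 to 18.8). *Jun*, with 169 UMIs in 154 wells, and *Jund*, with 155 in 142, made up 84.4% of them, against 37.1% in the retained cells. That share was 63.2% in the endothelial cells and 48.6% in the pericytes without the 2 highest cells. In the wells above 8000 UMIs it was 43.5%. *Jun* was at 7.49 per 10000 in the small wells (6.18 to 9.31 by plate) and at 3.23 in the retained cells. *Jund* was at 6.87 (5.54 to 9.59 by plate) and 2.33. *Fos* was at 0.754, *Egr1* at 0.665 and *Junb* at 0.443 in the small wells, and *Hspa1a* was at 0. Both *Jun* and *Jund* thus lay higher in the small wells of all 4 plates than over the retained cells.

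By edgeR on sums per plate with the plate as a block, 761 genes were tested between these wells and the retained cells. Of these, 27.9% were higher and 25.0% lower in the small wells. *Jun* (log2 fold change 1.37, SE 0.33, adjusted p = 0.00102) and *Jund* (1.56, SE 0.35, adjusted p = 0.000419) were the 2 of the 10 genes abundant enough to be tested. Both were higher. They passed the filter through the small wells, where they are high, so that both tested genes rose is no result about the 10. Without the low-count filter *Jun* (1.97, adjusted p = 0.00371 by edgeR) and *Jund* (2.10, adjusted p = 0.00194 by edgeR) were higher too. In that fit *Egr1* (-1.42, adjusted p = 0.379 by edgeR) and *Junb* (-1.16, adjusted p = 0.846 by edgeR) did not pass. Hemoglobin transcripts rose with them: *Hba-a1* had a log2 fold change of 3.72 and *Hba-a2* of 1.88. Of the 9 chaperone genes tested, *Hsp90aa1*, *Hsp90ab1*, *Hspd1* and *Hspe1* were higher and *Hspa8* was lower. Of 5 genes of the dissociation list *Zfp36l1* was higher, *Id3* and *Ccn2* were lower, and *Rhob* and *Mcl1* did not pass. The retained cells were chosen by size and by *Cldn5* or *Pdgfrb*, and the part of this choice and of the erythroid transcripts in these differences was not tested.

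**Figure D5:**
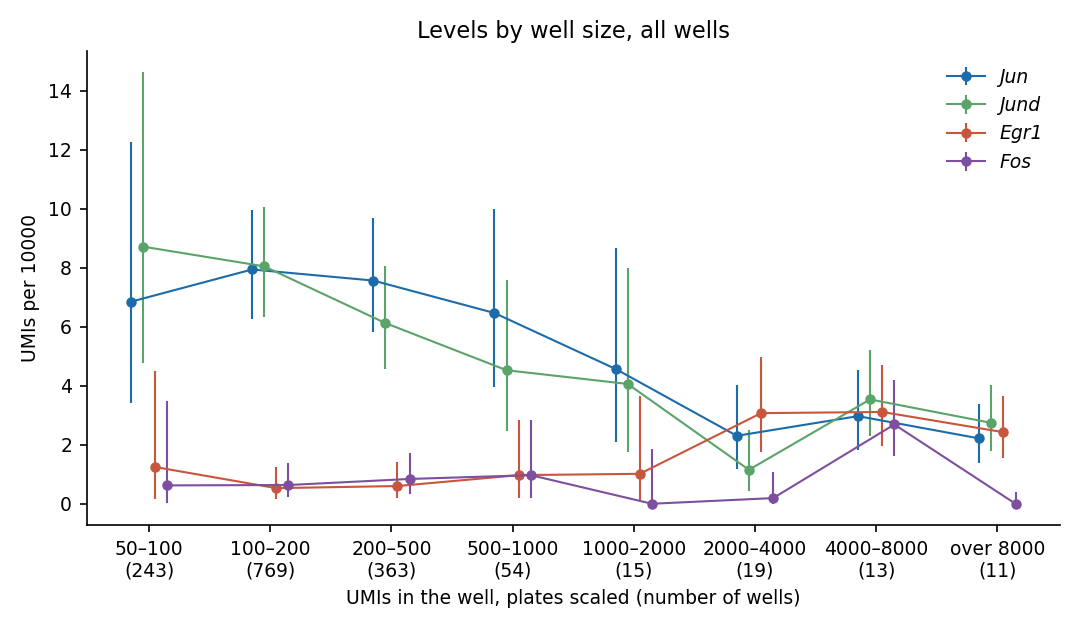
Level of *Jun*, *Jund*, *Egr1* and *Fos* in UMIs per 10000 by the size of the well, over wells of at least 50 UMIs whatever their markers or mitochondrial share; bars are exact 95% Poisson intervals and the numbers of wells stand in brackets. *Jun* falls from 7.95 in wells of 100 to 200 UMIs to 2.30 at 2000 to 4000 and is at 2.97 at 4000 to 8000, while *Egr1* goes from 0.53 to 3.07 at 2000 to 4000, where 10 of its 16 UMIs lie in 1 well.

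Single wells with many UMIs of the genes also lay outside the filters. A well of 800 UMIs in the dEC/dEC PDGFRB-gate plate held 11, among them 6 of *Jun*, 3 of *Fos* and 1 each of *Fosb* and *Egr1*, 138 per 10000, with no *Cldn5* or *Pdgfrb* UMI. A well of 5973 UMIs in the dEC/dEC CD31-gate plate, above 8000 after scaling, held 25, of which 15 were *Egr1*, 41.9 per 10000, with 7 *Pdgfrb* UMIs and no *Fos*. In the fl/fl CD31-gate plate a well with UMIs of both markers held 13, spread over *Jund*, *Egr1*, *Ier2*, *Junb* and *Fos*. The 11 wells above 8000 UMIs stood at 11.4 per 10000 with *Fos* and *Fosb* at 0 of 94756 UMIs, and the 5 wells with a mitochondrial share of 10% or more stood at 15.9. *Hspa1a* and *Hspa1b* together had 6 UMIs in 2 of the wells above 8000 UMIs and 2 UMIs in the 1478 small wells.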

How the data were processed

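Single cells from the vitreous body of P6 mice were sorted into 4 plates of SORT-seq, a plate-based 3′ method with UMIs. Per the labels the authors aligned reads with STARsolo 2.7.11b to GRCm38. The deposited values are estimated counts, 1 UMI table a plate, with no scaling. Of the values above 0, 1.18% are over 0.001 from a whole number. Values were rounded for sums, intervals and fits, which the plan had made for counts. Spike-ins were left out, totals were brought to the highest of the plate medians, and the study's limits on UMIs and 13 mitochondrial genes were applied again. The cells kept per class and genotype are not exactly those of the study. Plate gates came from the study's sorting scheme. Plates held 51972 to 174645 mouse UMIs. Doublets were not called; wells with both markers were left out.

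Classes were compared with edgeR 4.0.16 (TMM, filterByExpr, Benjamini-Hochberg) under R 4.3.3, and DESeq2 1.42.0 was an alternative. The SE printed with an edgeR log2 fold change is its absolute value divided by the square root of the quasi-likelihood F. It was worked back from the test and not given by the fit. On simulated data with log2 changes of 2, 38 of 38 changed genes tested between classes were recovered with 2 of 250 unchanged genes called, and 95 of 99 with 4 of 1498 for small wells. Changed genes that did not pass the low-count filter are not in these numbers. The fit without that filter, which called *Egr1*, was not simulated. Genotypes, 1 suspension each, were compared by ratios with exact conditional binomial intervals at 95% and a floor of 3 UMIs. The expected number of cells spread a gene's UMIs in proportion to totals. Python 3.11.15 and SciPy 1.17.1 were used, and edlib for alignments. Named were the 10 genes, of each other stress list the 3 most abundant and any called between classes, and the 5 genes nearest in pattern; 1 gene named by this rule is not reported here. Genes and lists were chosen with earlier results of these data known. The small wells, the leaving out of the 2 highest cells, *Ccn1*, the globin genes and the single wells were chosen after the data were seen.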

Additional observations from a re-analysis of the deposited data

Results flagged for a closer look

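Over the 4 plates, 1 plate stood apart from the rest in 3 of 15 comparisons of plate values. Chance marks about 1 in 20 by this rule, but a gene found in 1 plate alone is always marked, as *Fos* and *Fosb* are here. The retained cells of the dEC/dEC PDGFRB-gate plate held 21.1 UMIs of the 10 genes per 10000, and those of the other 3 plates 6.75 to 8.66. *Fos* stood at 3.26 and *Fosb* at 1.72 per 10000 in that plate, with both at 0 in the retained cells of the other 3. The 2 highest cells lie in this plate and hold all of its *Fos* and *Fosb* UMIs, so the 3 values are not separate observations.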

How the results depend on the processing

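The number of genes called between the classes, 51, was 238 without the low-count filter, 143 with sums per class and genotype and, by edgeR with the gate as the class, 0 of 569 tested, of which 7 had an unadjusted p under 0.05. It was 32 to 54 with 1 plate left out, lowest without the dEC/dEC PDGFRB-gate plate. With the plate as a replicate block it was 46, and no member gene was tested. A replicate number names the plate of 1 gate in both genotypes and pairs no animals. Of the 10 genes 1, *Egr1*, was called without the filter and 0 under the other 14 alternatives, in which none was abundant enough to be tested. The pericyte level of 18.4 was 9.95 without the 2 highest cells and 9.65 to 21.1 with 1 plate left out, lowest without the dEC/dEC PDGFRB-gate plate. The endothelial level was 9.70 with the gate as the class. The pericyte genotype ratio was -0.55 without the cell with the most UMIs of the genes and -0.078 without the 2 highest, and the CD31-gate plates alone gave none. Thinning to 1000 UMIs left 13.3 of 19 pericytes with a UMI. Calls between small wells and retained cells, 402, were 244 to 566 with 1 plate left out, lowest without the dEC/dEC PDGFRB-gate plate, and *Jun* and *Jund* were called in all 6 alternatives. Depth limits *Atf3*, *Hspa1a* and *Hspa1b*, whose 1 to 3 UMIs allow no comparison.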
